A study of Nothobranchius furzeri with 20 samples.

Results

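The genes described here are the 150 shortest among the genes with a deposited RPKM of at least 1 in every library of killifish muscle. RPKM stands for reads scaled by gene length and a library total, and the totals behind the deposited values are described under processing. The length of a gene was taken from the deposited tables as the value that links its count to its RPKM, and 7616 of the 26739 genes met the RPKM floor. The members measured 18 to 315 bases, with a median of 265.5, against a median of 2405.5 bases for the remaining 7466 eligible genes. Muscle came from male turquoise killifish (Nothobranchius furzeri, an annual fish with a short life) of the strain MZM-04/10p, and RNA was sequenced from 20 libraries in 3 groups. There were 10 libraries from fish of 27 weeks labelled swim-tunnel, 5 from fish of 9 weeks labelled swim-tunnel, and 5 from fish of 9 weeks with no perturbation. In a swim tunnel fish are made to swim in flowing water. Age was therefore compared among swimmers only, and the labels gave neither the amount of swimming nor the identity of the animals, so p-values measure the spread between these samples.

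A short gene in such a table can be one of several kinds. Muscle holds abundant small proteins, such as parvalbumin, which buffers calcium in fast fibres, the light chains of myosin, the subunits of the ribosome and small subunits of the respiratory chain. Annotations also list mature microRNAs, which silence messenger RNAs by pairing with them, and gene models that cover only the coding part of a longer transcript. The tables named genes by identifiers that were paired with no gene name, 0 of 26739 of them matching the reference table, so no member can be assigned to any of these kinds, and the muscle label could not be checked against marker genes. Of the 4 identifiers printed below, 2 are of genes that rose and 2 of genes that fell with age.

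Library totals ran from 24333849 to 38571967 counts. On the first principal component of log2 CPM (counts scaled to a common library size with TMM factors), which held 37.3% of the variance, 27-week libraries 1 to 5 lay between 67.6 and 81.8, 27-week libraries 6 to 10 between -13.5 and 19.2, and the 10 libraries of 9 weeks between -56.4 and -18.1. All 27-week libraries carried the same labels, so where leaving out libraries 1 to 5, or libraries 6 to 10, changed a result on age, that value is given too.

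The lengths of the members fell into separate ranges. There were 9 genes of 18 to 24 bases, then none up to 147 bases, and the others ran from 147 to 315 bases. A length that was a whole multiple of 3, as a coding sequence has, was found for 135 members, or 90%, and for 56.1% of the remaining eligible genes whose length the tables fixed to the base. Of the members of at least 147 bases it was found for 130. What part of a transcript the counted models cover was not tested, so the label of shortest transcripts holds for the gene models that were counted, not necessarily for the RNA molecules. The next 150 genes by length, up to 381 bases, had multiples of 3 in 96% of cases, and the 116 longest eligible genes had them in 37.9%.

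The border at 150 genes was arbitrary. The last gene inside and the first gene outside both measured 315 bases, at 10.6 and 1.99 CPM and with log2 fold changes with age of 0.07 and 0.78, and 6 eligible genes in all had that length. The RPKM floor also shaped the list, because a floor per kilobase is met by few counts in a very short gene. In 19 members the lowest library had fewer than 10 counts. The whole table held 112 genes of 18 to 25 bases with at least 1 count, and only the 9 members passed both the floor and the low-count filter. A gene that was silent in any library could not be a member, so genes switched off in a whole group are missing from the list by construction.

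**Figure D1:**
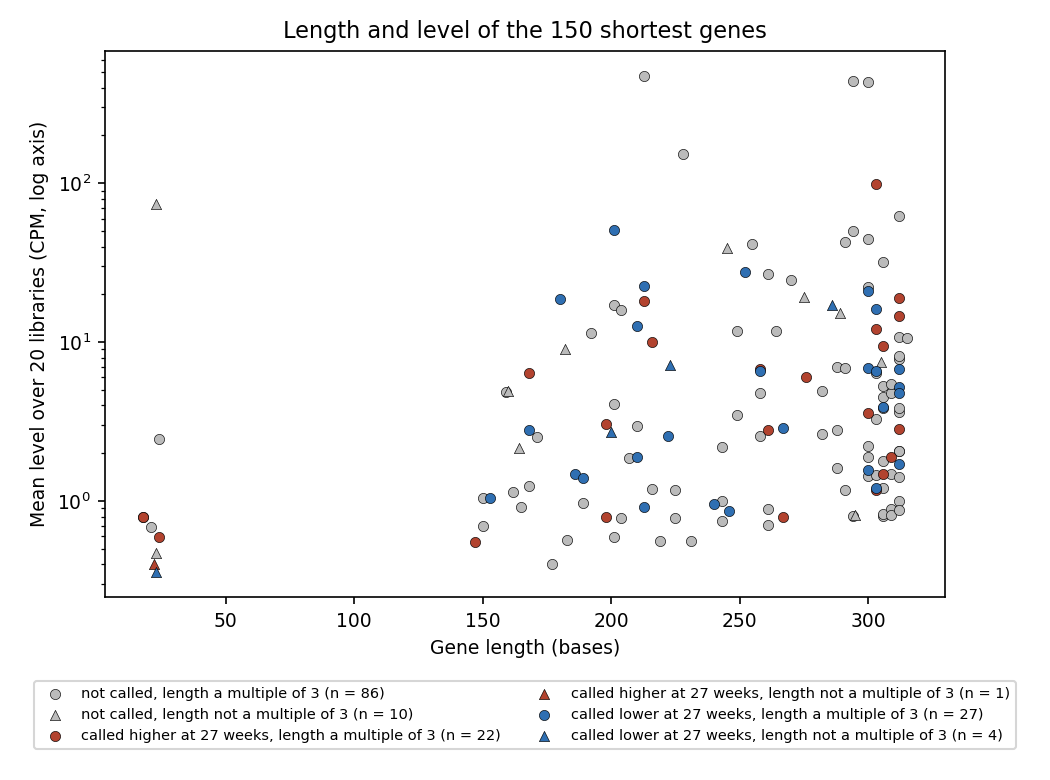
Mean level over the 20 libraries (CPM, log axis) against gene length in bases for each of the 150 genes. Colour gives the edgeR call for 27 against 9 weeks among swimmers, and circles and triangles give lengths that are and are not multiples of 3. The 9 genes of 18 to 24 bases stand apart at the left, and 3 genes above 400 CPM stand apart at the top.

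Most members were expressed at low levels, and a handful carried most of the counts. The median member stood at 2.86 CPM, against 15.3 CPM for the remaining eligible genes. The range ran from 0.356 to 476 CPM, with 34 members below 1 CPM, 93 below 5 CPM and 4 above 100 CPM. Of all counts assigned to the members, 48.8% belonged to 3 genes of 213, 294 and 300 bases and 68.2% to the top 10. None of the members was among the 50 most abundant genes of the muscle libraries, and the highest of them ranked 220.

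Counts per base of gene ordered the members differently. On that scale, CPM per kilobase, the leading member was a gene of only 23 bases (rank 5 by length) at 3219, ahead of the genes of 213 bases at 2236, 294 bases at 1501, 300 bases at 1439 and 228 bases at 667. The 23-base gene reached this place with a mean of 74.0 CPM, while the other 8 genes of 18 to 24 bases stood between 0.356 and 2.46 CPM. Whether its reads came from an RNA of 23 bases was not tested, so its place on this scale may not be that of an RNA.

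The share of all counts held by the 150 genes was small, and the 3 groups overlapped in it. It was 0.242%, 0.275%, 0.273%, 0.275%, 0.257%, 0.331%, 0.284%, 0.264%, 0.28% and 0.272% in 27-week libraries 1 to 10. In swimmers of 9 weeks it was 0.25%, 0.235%, 0.246%, 0.292% and 0.261%, and in unexercised fish of 9 weeks 0.256%, 0.289%, 0.294%, 0.298% and 0.279%. The lowest share was in a swimmer of 9 weeks and the highest in a 27-week library. The means were 0.275% ± 0.023 (SD, n = 10) at 27 weeks, 0.257% ± 0.0218 (SD, n = 5) in swimmers of 9 weeks and 0.283% ± 0.017 (SD, n = 5) in unexercised fish. The differences were 0.0185 percentage points with age among swimmers and -0.0265 points with swimming at 9 weeks, beside a pooled SD between libraries of 0.0208 points. Counting error was far smaller, with an exact binomial 95% interval of 0.2334% to 0.2367% in the library with the lowest share; such intervals cover counting error only. In bulk muscle, fewer cells of a type and less RNA per cell cannot be told apart.

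To set the members against genes of like abundance, eligible genes were divided into 10 classes of about equal number by mean log2 CPM. In each library the median deviation of the members from their own means was compared with that of the remaining genes of the same classes, weighted by the members in each class. The difference, here called the shift, is in log2 units. It averaged -0.01 ± 0.07 (SD, n = 10) at 27 weeks, 0.00 ± 0.05 (SD, n = 5) in swimmers of 9 weeks and 0.06 ± 0.05 (SD, n = 5) in unexercised fish. With age among swimmers the shift differed by -0.0126 and with swimming at 9 weeks by -0.0582, beside a pooled SD of 0.0587 between libraries. Between 27-week swimmers and unexercised fish it differed by -0.0708, more than that SD, though the libraries of these groups overlapped. The sign with age was not fixed, at 0.0124 without swimmer library 3 of 9 weeks and 0.0282 without 27-week libraries 1 to 5. As a summary over genes chosen with results known, it was given no p-value.

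The 27-week libraries did not lie together in the shift. Libraries 1 to 5 had -0.0309, -0.0798, -0.0578, -0.0715 and -0.135, and libraries 6 to 10 had 0.0771, 0.0433, 0.0463, 0.0439 and 0.0711. The swimmers of 9 weeks lay between -0.04 and 0.0833, and the unexercised fish between -0.0201 and 0.0973. Libraries 6 to 10 thus lay within the range of the unexercised fish, and libraries 1 to 5 below every one of them. The direction also turned with the definition of like abundance. With classes by counts per base instead of counts, the members lay 0.108 above their classes with age among swimmers and 0.0108 above with swimming. Matching was coarse at the low end, where 82 members with a median of 1.19 CPM shared a class with 679 genes with a median of 2.59 CPM.

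**Figure D2:**
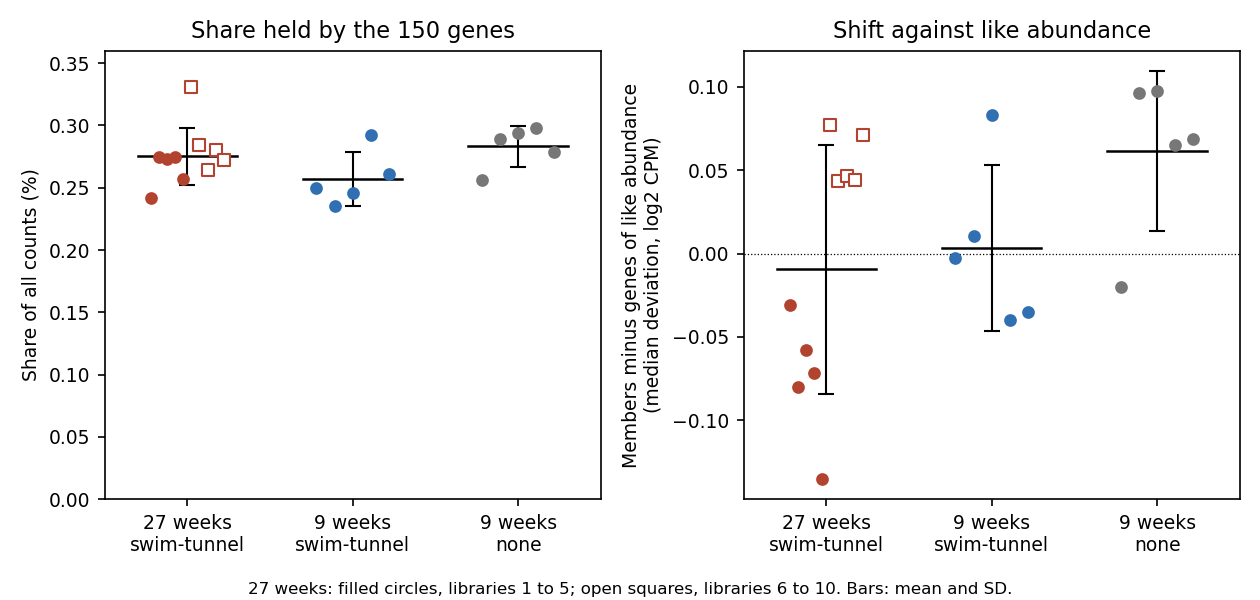
Left, the percent of all counts held by the 150 genes in each library, and right, the shift of the members against genes of like abundance in log2 CPM, by group. Points are libraries (27-week libraries 1 to 5 as filled circles, 6 to 10 as open squares) and bars give mean and SD. The shares overlap between 0.235% and 0.331%, and in the shift all of 27-week libraries 1 to 5 lie below 0 and all of libraries 6 to 10 above it.

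No member passed the test for swimming at 9 weeks. The count was 0 of 150 genes in the comparison of swimmers with unexercised fish (quasi-likelihood test of edgeR, threshold 0.05 on p adjusted by Benjamini-Hochberg over 16653 genes). The background was 0.18% of all tested genes, 0.108% higher and 0.0721% lower, and 0.254% of the remaining eligible genes, 0.161% higher and 0.0938% lower. With shares that low, a count of 0 among 150 genes is close to the background. At an unadjusted p under 0.05 there were 11 members, or 7.33%, against 13.6% of all tested genes and 15.4% of genes of like abundance. DESeq2 called 1 member, but the share of all tested genes that it called is not given here, and the shares above are from edgeR. The CPM of swimmers and unexercised fish did not overlap for 1 member, which was lower in swimmers, or 0.667% of the members, beside 5.13% of all tested genes (3.02% higher, 2.11% lower), 6.68% of the remaining eligible genes and 6.6% of genes of like abundance. The median log2 fold change of the members was -0.03, with 68 of 150, or 45.3%, above 0. For all tested genes it was 0.04 with 54.5% above 0, and for the remaining eligible genes 0.002 with 50.3%. Genes of like abundance had a median of 0.05 with 56.3% above 0.

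The member with the smallest p for swimming was a gene of 300 bases, singled out after its values were seen. It stood at 2.30, 1.98, 3.52, 0.761 and 0.956 CPM in swimmers, against 0.742, 0.762, 0.757, 0.498 and 0.712 CPM in unexercised fish. In 4 swimmers it lay above every unexercised fish and in 1 within their range, and the 2 lowest swimmers held 24 and 23 counts. The difference on the log2 scale, 1.46, did not pass (SE 0.33, edgeR adjusted p = 0.0641), though it did in some other fits. It passed without swimmer library 4 (log2 fold change 1.66, edgeR adjusted p = 0.0185) or library 5 (1.62, adjusted p = 0.0451) and with DESeq2 (1.46, adjusted p = 0.0042). The 27-week libraries belong to neither group compared, but it also passed with libraries 1 to 5 of them left out (1.45, edgeR adjusted p = 0.0439) or libraries 6 to 10 left out (1.47, adjusted p = 0.0377). Over all alternatives the adjusted p ran from 0.0042 to 0.19.

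By the same test and threshold, 54 of the 150 genes differed with age among swimmers, 23 higher and 31 lower at 27 weeks. That is 36% of the members, against a background of 31.7% of all tested genes, 39.2% of the remaining eligible genes and 34.7% of genes of like abundance. The share of members called was therefore near the background. By direction, 15.3% of members were higher and 20.7% lower. Genes of like abundance had 14.1% and 20.6%, all tested genes 14.8% and 16.8%, and the remaining eligible genes 13.2% and 26%. The change was at least 2-fold in 12 of the higher and 11 of the lower members, or 8% and 7.33% of the members, against 6.43% and 4.68% of all tested genes and 3.52% and 5.49% of the remaining eligible genes. Members had a median log2 fold change of 0.01, against -0.03 over genes of like abundance, -0.08 over all remaining eligible genes and 0.03 over all tested genes. The sign of such a median was within the reach of the scaling, since upper-quartile factors moved the median of the members to 0.10 and that of all tested genes to 0.12.

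The groups of swimmers at 27 and 9 weeks did not overlap in CPM for 27 members, 11 higher and 16 lower at 27 weeks. This is 18% of the members, against 8.81% of all tested genes, 13% of the remaining eligible genes and 9.09% of genes of like abundance. For members higher at 27 weeks the share was 7.33%, against 2.58% of all tested genes, 2.61% of the remaining eligible genes and 2.06% of genes of like abundance. For lower members it was 10.7%, close to the 10.4% of the remaining eligible genes, against 6.23% of all tested genes and 7.03% of genes of like abundance. No test was made of these differences between lists. All the values are described for a list whose members share libraries and, in part, low counts.

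The block of 27-week libraries mattered to the number of calls. Without libraries 6 to 10 the test called 88 members, 34 higher and 54 lower, where 50.5% of tested genes were called. Without libraries 1 to 5 it called 39, 22 higher and 17 lower, where 23.4% were called. These fits share the 9-week libraries, and 30 members passed in the same direction in each of them, 14 higher and 16 lower. That is 20% of the members, against 15.5% of all tested genes and 22.1% of the remaining eligible genes. There were 2 members called in opposite directions, or 1.33%, against 1.32% of all tested genes.

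Length was compared with the age difference within and beyond the list. The Spearman correlation of log2 fold change with length was 0.0387 across the 150 genes, which share their libraries, and 0.116 across those of at least 147 bases. When eligible genes were ordered by length in 50 full windows of 150, the window of the shortest genes had the third highest median log2 fold change, with the other 49 between -0.24 and 0.07. The rank did not extend to the next window, up to 381 bases, at -0.14, but the window of 450 to 513 bases had the highest median, 0.07. Other short windows stood at 0.01 (642 to 696 bases), 0.004 (513 to 573 bases), -0.02 (576 to 642 bases) and -0.08 (383 to 450 bases). Among long ones, a window of 2670 to 2790 bases stood at 0.02. Windows were not matched for abundance, with a median of 2.86 CPM in the first and 40.4 CPM in the last full window. The 116 longest genes, too few for a full window, were left out of this ranking and had a median of -0.19 with 40.5% called. In the window of the shortest genes the share called, 36%, lay inside the range of the other full windows, 28.7% to 47.3%. For swimming its median of -0.03 lay inside the range of -0.07 to 0.13.

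**Figure D3:**
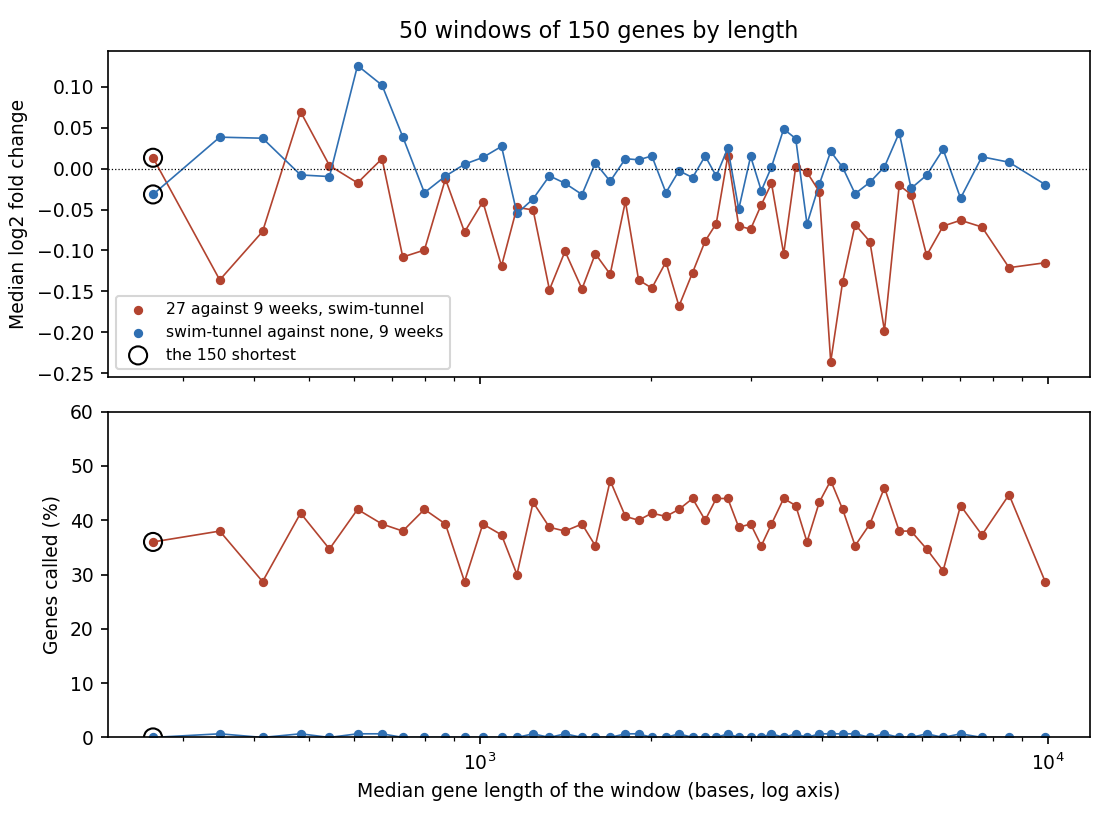
Median log2 fold change (top) and percent of genes called by edgeR (bottom) in 50 full windows of 150 eligible genes (the 116 longest genes are not drawn), against the median length of the window in bases (log axis). Red is 27 against 9 weeks among swimmers, blue is swim-tunnel against none at 9 weeks, and rings mark the 150 shortest genes. The ringed age window lies at 0.01, near the top of a range from -0.24 to 0.07, and its 36% of called genes lies within the 28.7% to 47.3% of the others. The age window next to it lies at -0.14, and the highest age window is that of 450 to 513 bases.

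Of the members called with age, 10 higher and 9 lower met the naming rule, which asked for a mean of 5 CPM or more in whichever group was higher and for no more than 1 overlapping library. Passing the threshold and near-complete separation of the groups were thus set by the rule for the genes named here. The share of all tested genes that meet this rule is not given here, so the counts of 10 and 9 are not a result about the members. The first by size of increase was Nfu_g_1_007419, with a length of 306 bases. At 27 weeks it ranged from 8.75 to 19.7 CPM with a median of 12.8, against 7.38, 6.37, 7.23, 4.91 and 4.37 CPM in swimmers of 9 weeks. Every 27-week library lay above every swimmer of 9 weeks. The rise was 1.16 on the log2 scale (SE 0.20, edgeR adjusted p = 0.000309). With libraries 6 to 10 left out it was 1.45, and with libraries 1 to 5 left out 0.71, past the threshold each time. In unexercised fish it was between 4.17 and 5.49 CPM. The difference between swimmers and unexercised fish, 0.33 on the log2 scale, missed the threshold (SE 0.22, edgeR adjusted p = 0.571).

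The other member named for its increase was Nfu_g_1_016979, with a length of 303 bases. It ranged from 10.3 to 27.1 CPM with a median of 15.5 at 27 weeks, against 7.64, 5.60, 9.83, 7.04 and 8.19 CPM in swimmers of 9 weeks. These groups did not overlap either, though the lowest 27-week library and the highest swimmer of 9 weeks were close. It had 13.7 to 27.1 CPM in 27-week libraries 1 to 5 and 10.3 to 20.4 CPM in libraries 6 to 10. With age the log2 fold change was 1.07 (SE 0.22, edgeR adjusted p = 0.00112). Unexercised fish had 7.84, 7.15, 12.9, 8.25 and 8.06 CPM, so 1 of them lay among the 27-week libraries. With swimming the log2 fold change was -0.21 and did not pass (SE 0.24, edgeR adjusted p = 0.774).

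The largest decrease was that of Nfu_g_1_011648, with a length of 312 bases. It ranged from 1.40 to 4.33 CPM with a median of 1.99 at 27 weeks, against 5.94, 6.17, 4.26, 8.37 and 10.1 CPM in swimmers of 9 weeks. A single pair of libraries overlapped, the highest at 27 weeks and the lowest at 9 weeks. Between these groups the log2 fold change came to -1.59 (SE 0.24, edgeR adjusted p = 8.93e-05), or -2.08 with 27-week libraries 6 to 10 left out and -1.23 with libraries 1 to 5 left out, both past the threshold. Unexercised fish had 6.75 to 11.8 CPM, and the log2 fold change with swimming, -0.43, did not pass (SE 0.28, edgeR adjusted p = 0.547).

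Nfu_g_1_015441, with a length of 223 bases that is not a multiple of 3, was the other member named for its decrease. It ranged from 1.65 to 7.57 CPM with a median of 3.72 at 27 weeks, against 9.35, 8.77, 10.3, 11.1 and 11.6 CPM in swimmers of 9 weeks. No library overlapped. A log2 fold change of -1.22 resulted (SE 0.29, edgeR adjusted p = 0.00371), and it differed between the 27-week libraries, at -2.13 without libraries 6 to 10 and -0.68 without libraries 1 to 5. Unexercised fish had 8.04 to 12.6 CPM, and the log2 fold change with swimming was 0.05 (SE 0.34, edgeR adjusted p = 0.976).

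**Figure D4:**
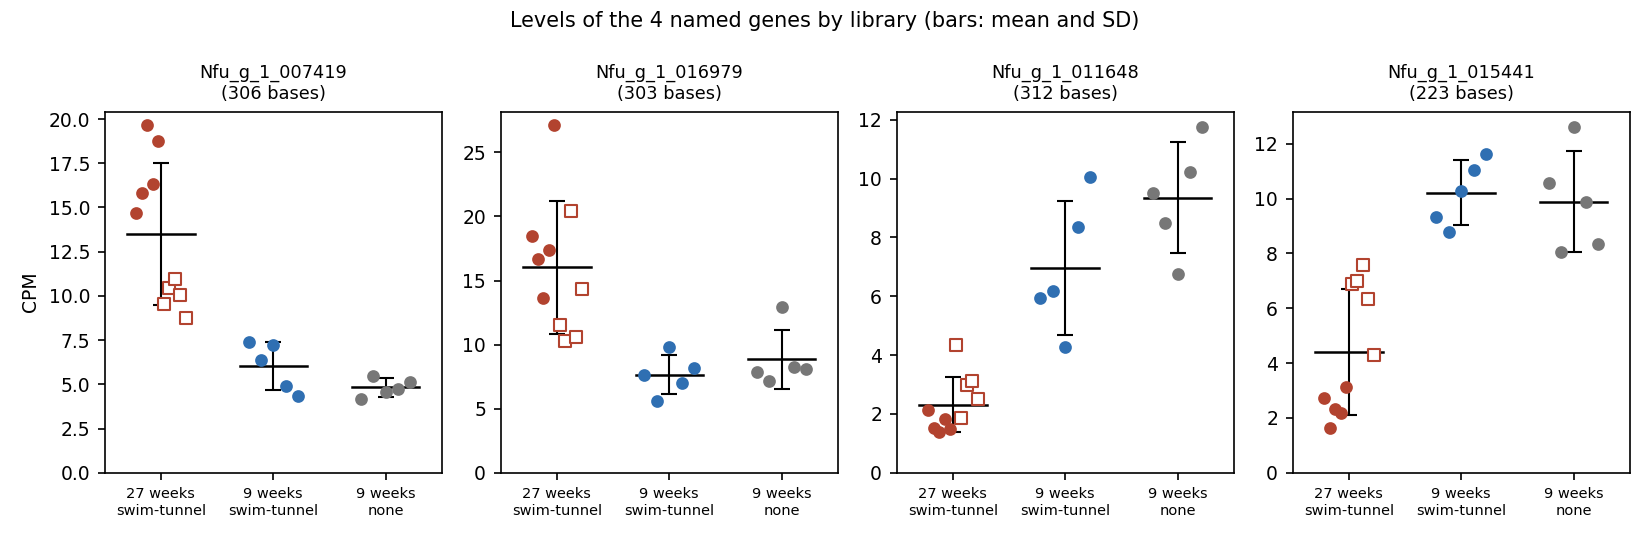
CPM of the 4 named genes in each library by group, with mean and SD as bars. Filled circles at 27 weeks are libraries 1 to 5 and open squares are libraries 6 to 10. Both genes at the left lie higher and both at the right lie lower at 27 weeks than in swimmers of 9 weeks, with 1 overlapping pair of libraries in Nfu_g_1_011648.

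The 9 genes of 18 to 24 bases differed among themselves with age. Of these, 3 rose and 1 fell among swimmers, and 5 did not pass. That is 44.4% called and 33.3% higher in a set of only 9, beside 31.7% called and 14.8% higher among all tested genes. The 3 that rose were an 18-base gene (rank 2 by length), the 22-base gene (rank 4) and a 24-base gene (rank 9), and in each of them every 27-week library lay above every swimmer of 9 weeks, as in 2.58% of all tested genes. Few reads fell on these 3 genes, so they are given in counts. At the minimum count of 10, the 22-base gene and the 24-base gene of rank 9 met the low-count filter only through the 27-week libraries. Being high at 27 weeks thus kept them among the tested genes, and their calls and separation are no independent support for a rise. The 22-base gene had 10 to 39 counts with a median of 18 in the 27-week libraries, against 1 to 7 with a median of 3 in swimmers of 9 weeks and 1 to 14 with a median of 3 in unexercised fish. Its log2 fold change with age was 2.69 (edgeR adjusted p = 0.000386), resting on 214 counts at 27 weeks and 16 in swimmers of 9 weeks.

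The 24-base gene of rank 9 had 13 to 48 counts with a median of 32.5 at 27 weeks, against 2 to 12 with a median of 4 in swimmers of 9 weeks and 3 to 16 with a median of 6 in unexercised fish. This was a log2 fold change of 2.38 (edgeR adjusted p = 0.000218). The 18-base gene of rank 2 had 23 to 52 counts with a median of 35.5 at 27 weeks, against 5 to 23 with a median of 15 in swimmers of 9 weeks and 10 to 15 with a median of 14 in unexercised fish, and its log2 fold change was 1.25 (edgeR adjusted p = 0.000729). The 3 increases passed under all alternatives that were run, with log2 fold changes of 2.41 to 3.17 for the 22-base gene, 2.09 to 2.76 for the 24-base gene and 1.07 to 1.41 for the 18-base gene. Those alternatives reuse the same libraries and are no separate support for the increases.

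The decrease was less firm. A 23-base gene (rank 7) had 2 to 13 counts with a median of 7.5 at 27 weeks, against 9 to 21 with a median of 16 in swimmers of 9 weeks, and the groups overlapped. On the log2 scale the difference was -0.98 (edgeR adjusted p = 0.031). At the minimum count of 10, the 27-week libraries alone did not bring this gene past the low-count filter. Being high at 9 weeks thus kept it among the tested genes, and its call is no independent support for a fall. The call was lost without swimmer library 4 (-0.87, adjusted p = 0.0872) or library 5 (-0.88, adjusted p = 0.0908) of 9 weeks, without 27-week library 8 (-0.91, adjusted p = 0.0528), without 27-week libraries 1 to 5 (-0.77, adjusted p = 0.155) and without a low-count filter (-0.94, adjusted p = 0.0556). The 9 genes carried identifiers numbered from 26198 to 26749, and the tables did not say what kind of gene they are. The sources used here do not say whether counting used strand, so reads of a gene that overlaps such a short one cannot be told apart from its own. Whether the reads came from RNAs of that length, rather than from a longer RNA on either strand, was not tested.

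**Figure D5:**
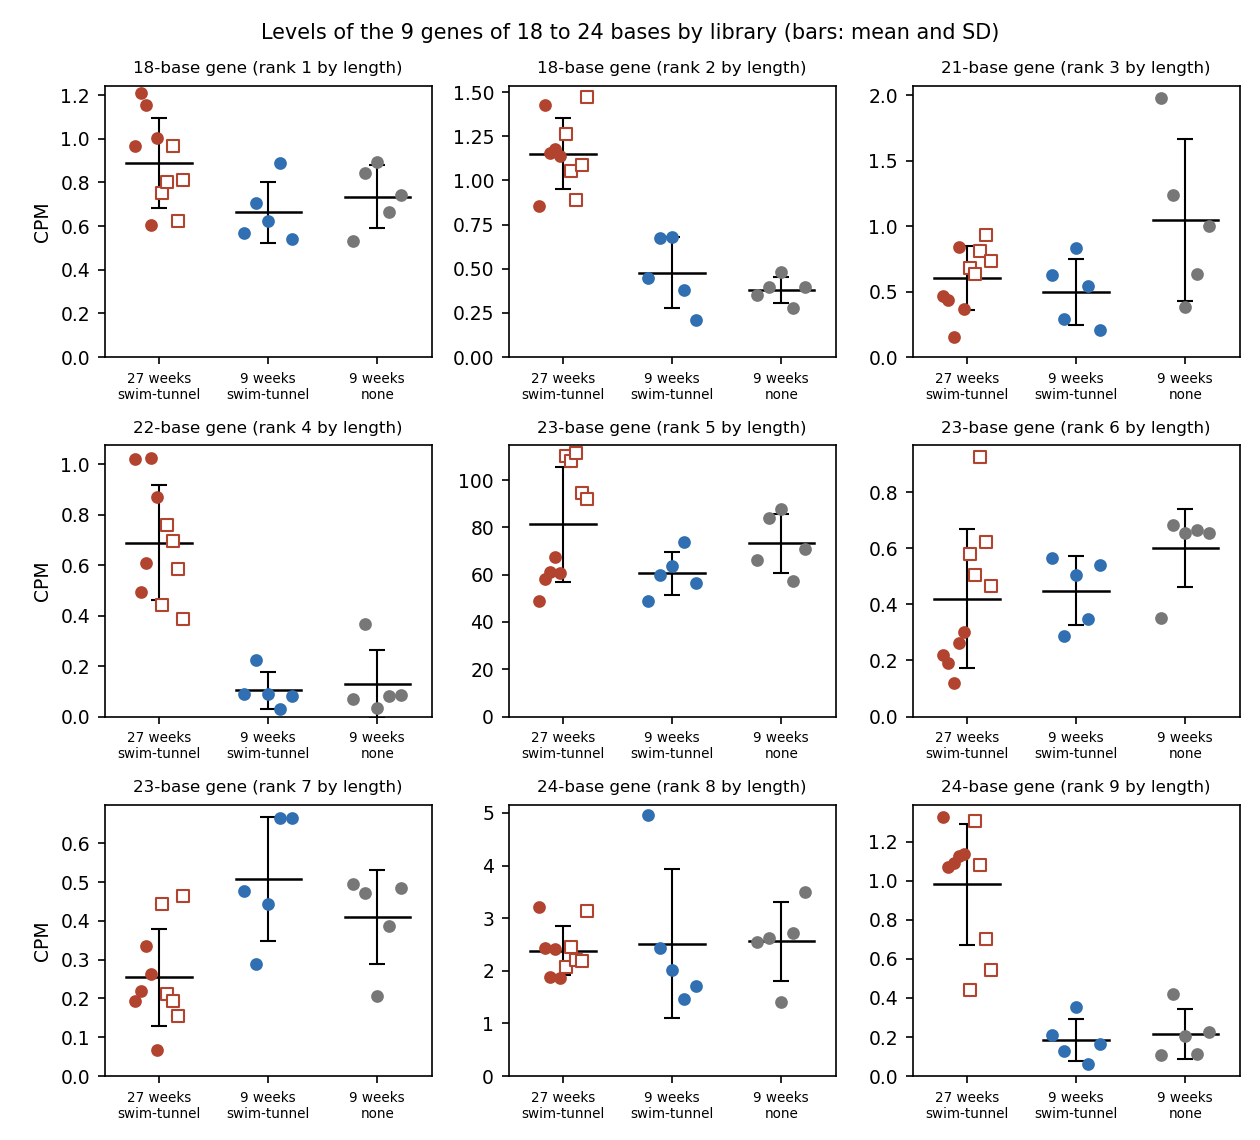
CPM of the 9 genes of 18 to 24 bases in each library by group, with mean and SD as bars and a separate axis for each gene. Filled circles at 27 weeks are libraries 1 to 5 and open squares are libraries 6 to 10. The 27-week libraries lie above all swimmers of 9 weeks in ranks 2, 4 and 9, and rank 5 is the only one of these genes above 5 CPM.

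The 4 most abundant members did not pass for age in the fit of all 20 libraries, but the 27-week libraries split in them. The 213-base gene had 329 to 447 CPM in 27-week libraries 1 to 5 and 559 to 680 CPM in libraries 6 to 10, against 345, 409, 459, 487 and 399 CPM in swimmers of 9 weeks. Its log2 fold change with age was 0.28 (edgeR adjusted p = 0.233), with 0.59 (adjusted p = 0.00316) without libraries 1 to 5 and -0.14 (adjusted p = 0.365) without libraries 6 to 10. The 294-base gene had 314 to 405 and 540 to 640 CPM in these parts of the 27-week group, and the 300-base gene next to it in abundance had 297 to 392 and 527 to 575 CPM. In these 3 genes libraries 6 to 10 lay above every swimmer of 9 weeks, and libraries 1 to 5 overlapped with the swimmers. The 228-base gene also split, at 102 to 135 and 158 to 185 CPM, but stood otherwise to the swimmers of 9 weeks. Its libraries 6 to 10 overlapped with them, and libraries 1 to 5 lay below all of them except for library 1. Its log2 fold change with age was -0.11, with -0.46 (edgeR adjusted p = 0.00343) without libraries 6 to 10 and 0.14 (adjusted p = 0.338) without libraries 1 to 5.

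The 23-base gene of rank 5 followed the split of the 213-base, 294-base and 300-base genes. It had 48.9 to 67.4 CPM in 27-week libraries 1 to 5 and 91.8 to 111 CPM in libraries 6 to 10, against 48.8 to 73.8 CPM in swimmers of 9 weeks. Its log2 fold change with age, 0.43, did not pass (edgeR adjusted p = 0.1). It passed without 27-week libraries 1 to 5 (0.77, adjusted p = 0.000985), without library 1 alone (0.49, adjusted p = 0.048) and with upper-quartile factors (0.51, adjusted p = 0.0388), and it was -0.07 without libraries 6 to 10. Across the 20 libraries the CPM of the 213-base gene was 6.02 to 7.23 times that of the 23-base gene, a coefficient of variation of 6%. The same ratio was 5.23 to 6.96 for the 294-base gene and 4.82 to 7.18 for the 300-base gene. It was looser for the 228-base gene, at 1.43 to 3.22 with a coefficient of variation of 24.4%. All of these ratios share the libraries and the 23-base gene as the divisor.

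The 27-week swimmers were also set against the unexercised fish of 9 weeks, where age and swimming differ together and cannot be told apart. Here 67 members were called, 28 higher and 39 lower, or 44.7%, beside 40.1% of all tested genes (21.2% higher, 18.9% lower), 47.5% of the remaining eligible genes (18.2% higher, 29.3% lower) and 42.9% of genes of like abundance. The groups did not overlap for 31 members, 14 higher and 17 lower, or 20.7%, beside 13.5% of all tested genes (5.31% higher, 8.19% lower), 20.2% of the remaining eligible genes and 14.3% of genes of like abundance. Of the 54 members called among swimmers, 46 were called in the same direction here and 0 in the other, and the comparisons share the 27-week libraries. These are 30.7% of the members, beside 30.8% of the remaining eligible genes and 24.2% of all tested genes. The 4 named genes passed, with log2 fold changes of 1.48 for Nfu_g_1_007419, 0.86 for Nfu_g_1_016979, -2.01 for Nfu_g_1_011648 and -1.17 for Nfu_g_1_015441. Of the genes of 18 to 24 bases, the same 3 were higher and 0 were lower. The 22-base gene and the 24-base gene of rank 9 are among these 3, with the limit of the low-count filter given above.

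The spread between libraries of a group was wider for members than for genes of like abundance, a difference that was not tested. The median SD in log2 CPM was 0.429 over members and 0.341 over genes of like abundance at 27 weeks, 0.301 and 0.26 in swimmers of 9 weeks, and 0.275 and 0.228 in unexercised fish. For the 9 genes of 18 to 24 bases alone it was 0.446, 0.567 and 0.441 in these groups. In the lowest class the members had fewer counts than the genes they were set against, and the part of this in the wider spread was not tested.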

How the data were processed

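Per the labels' protocols, an Illumina TruSeq RNA kit was used for the libraries. According to the submitters' processing notes the tools were STAR 2.4.1d, featureCounts 1.4.6-p4 and bcl2fastq 1.8.4. The sources used here give no settings, genome build, annotation or strand. The authors deposited raw counts per gene and RPKM values for 26739 genes and 20 libraries.

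The length of a gene was the median over libraries of the count divided by RPKM and by the library total, scaled to bases. The deposited RPKM values are reproduced by library totals that run down the rows in turn rather than by each library's own total, and lengths in bases were taken with those totals. The 2 ways shared 149 of 150 members. The floor used the deposited values. With each library's own total in the floor, 147 of the 150 members and 7931 genes in all met it. RPKM served for lengths and the floor of 1 only, and fold changes came from counts.

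The counts were tested with edgeR 4.0.16 under R 4.3.3. The filter filterByExpr (minimum count 10) left 16653 genes, all 150 members among them. One quasi-likelihood fit with TMM factors and robust estimates covered the 3 groups, with group as its only term, two-sided contrasts and Benjamini-Hochberg adjustment over all tested genes at a threshold of 0.05. SE is the absolute log2 fold change over the square root of F. CPM used TMM-scaled totals, log2 CPM a prior count of 2, and shares of counts raw totals. DESeq2 1.42.0 was an alternative. The fit was tested on simulated data. Libraries of a group differed by at least 29.6 in chi-square per degree of freedom, so none was a duplicate. Groups came from the labels, and library numbers follow the order of the sample codes and pair nothing.

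Named genes were the 2 with the largest increase and the 2 with the largest decrease with age among members past the threshold, with a mean of 5 CPM or more in whichever group was higher and no more than 1 overlapping library; 0 members met this for swimming. The 5 members highest in counts per base, the 3 shortest and those at the border are given by length. The members, lists and tests were chosen with earlier results of these data known. The lists of small-protein families could not be used, since 0 identifiers had a name.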

Additional observations from a re-analysis of the deposited data

Results flagged for a closer look

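In groups of 5 or 10 libraries, 60 sets of values were screened for a library far from the rest by the ratio of its gap to the range. There were 7 such sets, where chance gives about 1 in 20, or 3. Library 6 of the 27-week fish held 0.331% of its counts in the 150 genes, with the next at 0.284%. Library 1 of the unexercised fish had a shift of -0.0201 against genes of like abundance, with the other 4 from 0.0648 to 0.0973. In library 3 of the unexercised fish Nfu_g_1_016979 stood at 12.9 CPM, with the others at 7.15 to 8.25.

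The other 4 sets concern genes of low mean level. In unexercised fish the 22-base gene was at 0.368 CPM in library 2 and at 0.0344 to 0.0854 CPM in the others, and the 23-base gene of rank 6 was at 0.353 CPM in library 1 and at 0.654 to 0.683 CPM in the others. The 300-base gene with the smallest p for swimming was at 0.498 CPM in library 4 of the unexercised fish and at 0.712 to 0.762 CPM in the others. In swimmers of 9 weeks the 24-base gene of rank 8 was at 4.96 CPM (166 counts) in library 1. In the others it was at 1.46 to 2.43 CPM (41 to 76 counts). Without library 1 the log2 fold change of this gene with age turned to 0.32.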

How the results depend on the processing

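No paired analysis was possible because the labels give no replicate numbers. The number of members called stayed within 1.5 times for age among swimmers and for 27-week swimmers against unexercised fish under both other scalings, DESeq2, no low-count filter and fits of the compared groups alone. Leaving out 1 library gave 0 to 1 calls for swimming, 43 to 60 for age and 57 to 72 for 27-week swimmers against unexercised fish. Without 27-week libraries 1 to 5 swimming had 2 calls. Without libraries 6 to 10 the calls were 1, 88 and 103 in the same order, and the shift against unexercised fish was -0.131. The share of all tested genes called also changed between fits without a block, as given above for age. For the other comparisons, and for fits without 1 library, that share is not given here. No change in the members is read from those counts. These counts are therefore not a result about the members alone. DESeq2 gave 1 call for swimming, and its share over all tested genes is not given here either.

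With the 100 shortest genes, 27-week swimmers against unexercised fish had 42 calls and a shift of -0.135. With the 300 shortest, calls were 1, 111 and 130. The same fit called 0.18%, 31.7% and 40.1% of all tested genes in these comparisons. With the 300 genes the differences in share of counts were 1, 0.229 and 1.23 percentage points, against -0.0265, 0.0185 and -0.00799 with the 150. The sign turned for swimming and against unexercised fish, so the differences in share depend on where the list is cut. A floor on the mean RPKM, which shared 94 of 150 members, gave shifts of -0.0749 with age and -0.177 against unexercised fish. Per base the differences in share were -0.287, 0.147 and -0.141 points, and without the 50 most abundant genes 0.0683 with age and 0.0537 against unexercised fish, where the sign turned from -0.00799. Classes by counts per base turned the shifts to 0.0108, 0.108 and 0.119. All remaining tested genes in place of eligible ones, chosen after seeing the data, gave -0.129 with age and -0.157 against unexercised fish. Leaving out the 9 genes of 18 to 24 bases, also chosen after seeing the data, gave 0, 50 and 64 calls. The cause was not tested.

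With age, log2 fold changes reversed without 27-week libraries 1 to 5 for the 228-base gene (0.14) and the 23-base gene of rank 6 (0.46). They reversed without libraries 6 to 10 for the 23-base gene of rank 5 (-0.0664), the 213-base gene (-0.14), the 294-base gene (-0.19), the 300-base gene next in abundance (-0.30) and the 21-base gene (-0.18). Without 1 library in turn, that of Nfu_g_1_015441 with swimming ran from -0.0253 to 0.151, and that of the 24-base gene of rank 8 with age ran from -0.223 to 0.323. Low counts limit the genes below 1 CPM.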
